A study of Mus musculus with 59 samples.

Results

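The genes studied here were 7 genes whose human counterparts cause a polyglutamine disease when a CAG repeat in them expands: Atxn2, Atxn3, Atxn7, Cacna1a, Tbp, Atn1, and Htt. They were taken by name from the 54232 mouse genes counted in each library, without use of their values, and all 7 passed the filter on low counts in every region. The libraries came from 12 mice aged 10 weeks, and each mouse was 1 replicate. There were 4 WT mice, 4 Atxn1 154Q/2Q animals, which carry an expanded repeat on 1 endogenous Atxn1 allele and model spinocerebellar ataxia type 1 (SCA1), and 4 Atxn1 154Q[V591A;S602D]/2Q animals. In the last group the expanded allele also carries the changes V591A and S602D in the AXH domain, which were made to break the binding of ATXN1 to the repressor Capicua (CIC). All were on a C57BL/6 background by the labels, C57BL/6J in the methods, the second mutant line derives from an edited founder, and the endogenous promoter drives both mutant alleles in every cell that uses Atxn1. Poly(A) RNA of the cerebellum, brainstem, hippocampus, striatum, and cortex was sequenced, giving 59 libraries, with 4 in each group except 3 for Atxn1 154Q[V591A;S602D]/2Q in the brainstem. The comparison asks whether mice with an expanded repeat in Atxn1 have altered RNA of the other polyglutamine disease genes, and how these genes are used across the brain.

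The proteins of these genes do unrelated work. Ataxin-2 binds poly(A)-binding protein and takes part in RNA handling, ataxin-3 is a deubiquitinase, and ataxin-7 anchors the deubiquitinating module of the SAGA coactivator complex. CACNA1A is the pore of the P/Q-type calcium channel, which is the main calcium channel of Purkinje cells and of many release sites, TBP is the TATA-binding protein of TFIID, atrophin-1 is a transcriptional corepressor, and huntingtin is a large scaffold in vesicle transport. What they share is a run of glutamine codons, and the diseases are SCA2, SCA3, SCA7, SCA6, SCA17, dentatorubral-pallidoluysian atrophy, and Huntington's disease, in the order of the genes above. The cerebellum and brainstem are hit in most of the ataxias, and the striatum and cortex in Huntington's disease.

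The mouse genes carry short runs. The longest uninterrupted run of glutamine codons in the transcript with the longest complete coding sequence of each gene (GENCODE M21, GRCm38) is shown for the 4 members with a run of at least 5, because the run is what defines the family. Each is printed 5′ to 3′ on the coding strand with 4 flanking codons on either side in lower case, and the capitals mark the CAG and CAA codons.
Tbp: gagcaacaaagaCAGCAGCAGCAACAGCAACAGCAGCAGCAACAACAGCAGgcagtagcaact
Htt: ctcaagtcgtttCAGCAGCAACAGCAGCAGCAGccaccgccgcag
Atxn3: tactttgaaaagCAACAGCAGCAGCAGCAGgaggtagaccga
Atxn7: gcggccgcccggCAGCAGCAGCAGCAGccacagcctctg
The Tbp run has 13 codons, 9 of them CAG and 4 CAA, and lies in exon 4 (chr17:15504391-15504429, plus strand). The Htt run has 7 codons in exon 1 (chr5:34761958-34761978, plus strand), the Atxn3 run 6 codons in exon 10 (chr12:101926563-101926580, minus strand), and the Atxn7 run 5 codons in exon 2 (chr14:14013156-14013170, plus strand). In Atxn2, Cacna1a, and Atn1 the longest run had 3 codons and need not lie where the human repeat lies. Over 21571 coding genes the median longest run was 2 codons, and 1.164% of genes had a run of at least 5.

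How fully a gene's reads were counted differed among the members. Atn1 (chr6:124742544-124756524, minus strand) shares 84.217% of its exon bases with Gm45234 on the same strand, and a read lying on 2 genes was not counted, so the 261 to 978 counts per library (5.28 to 13.9 CPM, counts per 1000000 counts of the library after TMM scaling within its region) come from what is left of the gene and are no measure of its whole RNA. Tbp (chr17:15499888-15528379) shares 19.019% of its exon bases with Pdcd2 on the opposite strand, which is listed at 0 in all 59 libraries, and Cacna1a (chr8:84388440-84640246) shares 3.81% with the antisense gene Gm16183. The counts used were unstranded, so reads on these shared bases were not counted either. For Atxn2 (chr5:121711337-121816493) the shared part was 0.631%, and Atxn3 (chr12:101918901-101958246), Atxn7 (chr14:13961440-14107302), and Htt (chr5:34761740-34912534) share none. Outside Atn1, the lowest count of a member in any library was 686, for Tbp.

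Libraries held 28.1 to 112 M (M, 1000000) counted read pairs, and the striatal and cortical ones were the shallowest. A few libraries stood apart. The hippocampal library 154Q-76 had Xist at 190.0 CPM and Ddx3y at 54.6 CPM, while each other library had only 1 of these genes above 10 CPM. The cortical library WT-221 had Xist at 462 CPM, whereas the other libraries of that mouse had at most 5.64 CPM. File names and labels disagree for the cortical libraries 154Q-76 and 154Q-AXH-207 (154Q-AXH stands for Atxn1 154Q[V591A;S602D]/2Q in library names). The summed level of 6 striatal markers ran from 503 to 4659 CPM over the striatal libraries, against 160 to 188 CPM in WT cortex, and the highest was WT-220. The sum of 4 brainstem markers reached 284 CPM in Atxn1 154Q/2Q hippocampus, where the median library had 3.02 CPM. It was at most 2.86 CPM in WT hippocampus and 611 to 663 CPM in WT brainstem. Markers of the labelled region were present in every region. Results that rest on these libraries were recomputed without them. Both mutant groups mix the sexes by Xist and Ddx3y. In each, 1 mouse had Xist at 425 to 1163 CPM and Ddx3y at most 1.22 CPM in every library. These mice are the ones flagged below for Atxn3 in the cerebellum, and for Atxn7 in the striatum and Htt in the cortex. In WT only the cortical library WT-221 had this pattern, so sex was unbalanced between WT and the mutants. The part of sex in the genotype differences was not tested.

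**Figure D1:**
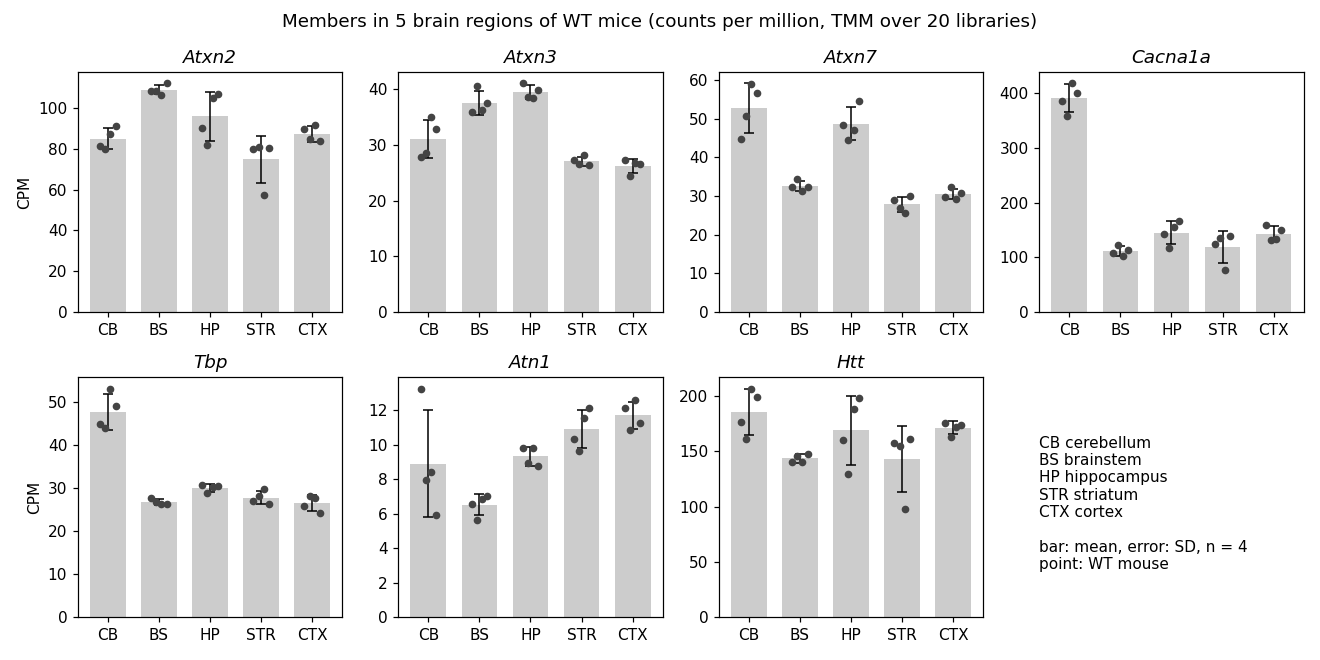
Level of each member in CPM (vertical axes, each from 0) in the 5 regions of WT mice, with 1 point per mouse, bars for the mean, and error bars for the SD (n = 4). Cacna1a and Tbp stand highest in the cerebellum with no overlap, while Htt overlaps between most regions.

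In WT mice each member was used in all 5 regions, and the regional profile differed from gene to gene. All 7 differed between regions by edgeR's quasi-likelihood F test with Benjamini-Hochberg adjustment, as did 91.6% of the 22200 genes tested, so the count says little of the members. The adjusted p was lowest for Tbp (1.18e-10) and highest for Htt (0.0398). Levels between regions are CPM on 1 scale over the 20 WT libraries, and pairs of regions were tested in the same fit. In bulk tissue, fewer cells of a type and less RNA per cell cannot be told apart.

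Cacna1a had the steepest profile. The cerebellar values were 386, 359, 418, and 401 CPM in the mice WT-70 and WT-77 and the mice WT-220 and WT-221, in that order, and no WT library of another region passed 167 CPM. The mean was 391 ± 25.0 CPM (SD, n = 4) in the cerebellum, 2.69-fold the hippocampal mean of 146 ± 21.2 CPM (log2 difference 1.43, SE 0.14, adjusted p = 1.69e-08). The cortex (144 ± 13.7 CPM), striatum (119 ± 28.8 CPM), and brainstem (112 ± 8.38 CPM) followed, and no neighbours in that order differed beyond their spread (adjusted p from 0.214 to 0.914). The striatal spread rests on WT-220, at 76.5 CPM against 125 to 138 CPM in the other mice. Markers of more than 1 cerebellar cell type moved with it. The sum of 5 Purkinje cell markers was 7513 to 8673 CPM in WT cerebellum and at most 988 CPM in any other WT library. The sum of 3 granule cell markers was 2370 to 2856 CPM in WT cerebellum and at most 157 CPM elsewhere in WT. The part of these markers in the level was not tested.

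Tbp was likewise highest in the cerebellum. Its values there were 44.8, 44.1, 53.1, and 49.1 CPM, and all 16 other WT libraries lay between 24.3 and 30.8 CPM. The cerebellar mean of 47.8 ± 4.20 CPM was 1.59-fold that of the hippocampus (30.1 ± 0.872 CPM, adjusted p = 1.09e-08). Hippocampus, striatum, brainstem, and cortex, in falling order, spanned 26.5 to 30.1 CPM, and none differed from its neighbour (adjusted p from 0.142 to 0.845).

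Atxn7, the SAGA subunit, was highest in the cerebellum and hippocampus. The cerebellum (44.8, 50.6, 58.996, and 56.7 CPM) and the hippocampus (48.4, 44.5, 47.2, and 54.6 CPM) overlapped and did not differ by the test (adjusted p = 0.201). The hippocampus was 1.49-fold above the brainstem (48.7 ± 4.29 against 32.6 ± 1.26 CPM, adjusted p = 2.22e-06), and brainstem, cortex, and striatum lay between 27.9 and 32.6 CPM on average. Neighbours among these did not pass the test, while brainstem and striatum differed 1.17-fold (adjusted p = 0.0177). That difference was lost without WT-77 (adjusted p = 0.110), without WT-220 (0.0577), and without the striatal library of WT-220 alone (0.0581).

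Atxn3, the deubiquitinase, had another order. Its mean was 39.5 ± 1.21 CPM in the hippocampus and 37.5 ± 2.15 CPM in the brainstem, which did not differ by the test (adjusted p = 0.361). The brainstem was 1.21-fold above the cerebellum (31.0 ± 3.42 CPM, adjusted p = 0.0011), and the cerebellum 1.15-fold above the striatum (27.0 ± 0.807 CPM, adjusted p = 0.0141), a step that was lost without WT-220 (adjusted p = 0.0792), without WT-221 (0.284), and without the cortical library of WT-221 (0.0626). Striatum and cortex (26.2 ± 1.24 CPM) overlapped.

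Atxn2 and Htt were the flattest. For Atxn2 the brainstem was highest (109 ± 2.30 CPM) and the striatum lowest (74.8 ± 11.5 CPM), with each step between neighbours below the threshold (adjusted p from 0.0837 to 0.713), while brainstem and striatum themselves differed 1.46-fold (adjusted p = 3.97e-05). For Htt the cerebellum had 186 ± 20.9 CPM, the cortex 171 ± 5.82, the hippocampus 169 ± 31.2, the brainstem 144 ± 3.89, and the striatum 143 ± 30.0. Of 10 pairs of regions only cerebellum against brainstem (1.29-fold, adjusted p = 0.0185) and cerebellum against striatum (1.30-fold, adjusted p = 0.0153) passed for Htt. The first was lost without WT-70 (adjusted p = 0.0792) or WT-221 (0.109), and the second without WT-220 (0.175) or its striatal library alone (0.0693). The counted remainder of Atn1 ran from 6.53 ± 0.608 CPM in the brainstem to 11.7 ± 0.774 CPM in the cortex, with 1 cerebellar library, WT-70, at 13.3 CPM against 5.95 to 8.41 CPM in the other 3.

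By pairs of regions, all 7 members differed between cerebellum and brainstem (65.4% of all genes did). For this pair Htt was lost without WT-70 or WT-221, as given above. Atn1 was lost without WT-70 (adjusted p = 0.260) or WT-77 (0.0681). Of the 7, 3 differed between cerebellum and hippocampus (63.6% of genes), 5 between cerebellum and striatum (71.8%), and 5 between cerebellum and cortex (70.3%). The count was 4 for brainstem against hippocampus (60.7%), 4 for brainstem against striatum (66.1%), 4 for brainstem against cortex (65.1%), 3 for hippocampus against striatum (58.2%), and 3 for hippocampus against cortex (55.4%). None of the 7 differed between striatum and cortex (10.7%), where DESeq2 also called 0 and 1 member, Atxn2, had an unadjusted p under 0.05 with edgeR. With 7 genes against such shares, none of these counts is read as particular to the members.

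Levels between genes are compared only per length, as reads per kilobase of the transcript described above per 1000000 counts (RPKM). In the WT cerebellum Cacna1a was first at 49.4 RPKM, followed by Tbp at 25.3, Atxn2 at 19.0, Atxn7 at 17.9, Htt at 14.1, Atxn3 at 5.78, and the remainder of Atn1 at 2.01. With the length of all annotated exons instead, Cacna1a stayed first (34.3 RPKM) and Tbp came to 3.52 RPKM, so the order behind Cacna1a depends on the transcript taken.

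**Figure D2:**
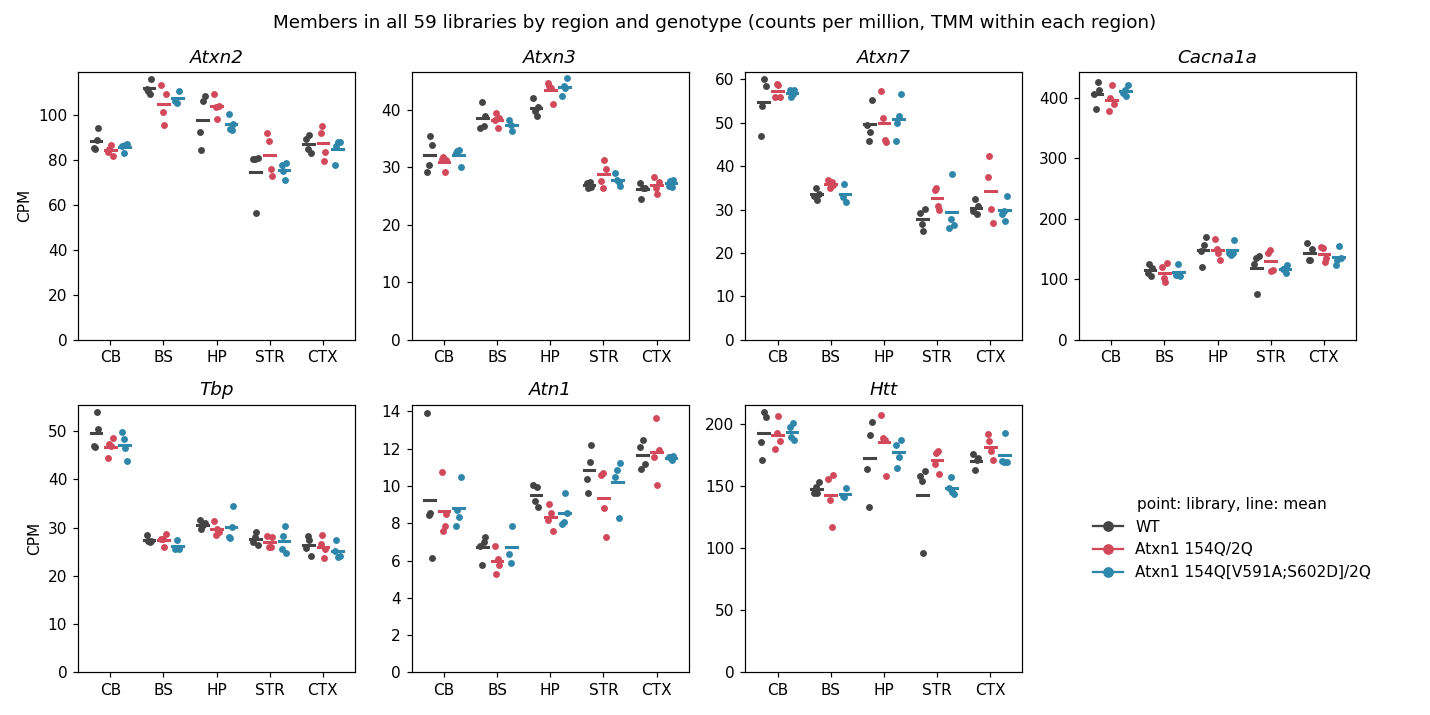
Level of each member in CPM (vertical axes, each from 0) in all 59 libraries by region and genotype, with 1 point per library and a line at each group's mean. Within a region the 3 genotypes overlap for nearly all members, while the cerebellum stands apart for Cacna1a and Tbp.

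Between genotypes no member passed the threshold in any region. Over 7 members, 5 regions, and 3 comparisons of genotypes, edgeR's quasi-likelihood test called 0 of 105 differences, DESeq2 called 0, and 4 of the 105 had an unadjusted p under 0.05 with edgeR. The adjusted p was at least 0.216. The log2 fold changes lay between -0.22 and 0.26, and the 95% intervals reached from -29.9% to 45.6%, with both extremes in the striatum. The genes as a whole did change: in Atxn1 154Q/2Q against WT 5.22% of genes tested were called in cerebellum, 0.538% in brainstem, 5.91% in hippocampus, 5.68% in striatum, and 11.1% in cortex. In Atxn1 154Q[V591A;S602D]/2Q against WT the shares were 2.21%, 0.0138%, 1.3%, 1.35%, and 7.15% in the same order. Between the mutants they were 0.0335% in the cerebellum and 0 in the brainstem, hippocampus, striatum, and cortex, where 601 to 2356 genes had an unadjusted p under 0.05. At such shares, a count of 0 among 7 members is near the background in every region.

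**Figure D3:**
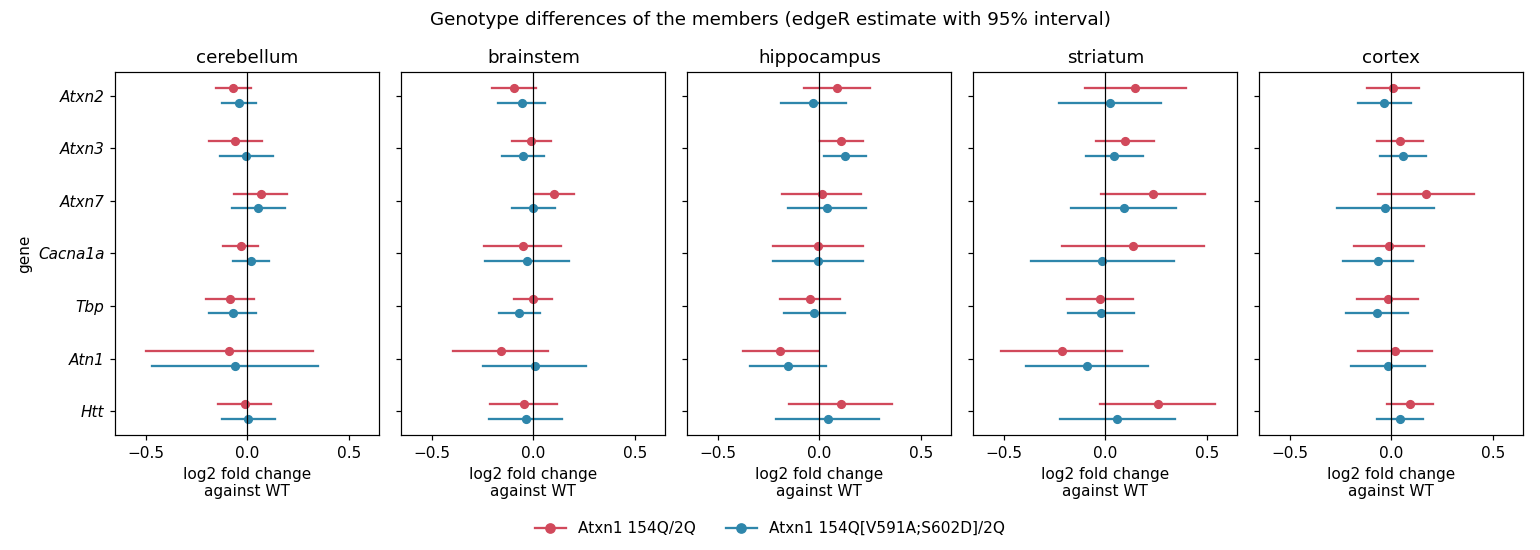
Log2 fold change against WT of each member (rows) in each region (panels) for both mutant genotypes, with points for the edgeR estimate and lines for the 95% interval. The points lie between -0.22 and 0.26, and 4 of the 70 intervals, which are not adjusted for the number of genes, exclude 0.

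In the cerebellum, the region where Cacna1a is highest, Cacna1a had 406, 382, 425, and 413 CPM in WT, 379, 399, 421, and 389 CPM in Atxn1 154Q/2Q, and 407, 414, 403, and 422 CPM in Atxn1 154Q[V591A;S602D]/2Q. The groups overlapped, and over the 3 comparisons the 95% intervals of Cacna1a lay between -8.07% and 10.2%. For Htt they lay between -9.45% and 10.7%, for Atxn2 between -10.1% and 8.04%, for Tbp between -13.0% and 9.32%, for Atxn3 between -12.4% and 13.7%, and for Atxn7 between -9.35% and 14.6%. For the remainder of Atn1 they spanned -29.3% to 35.4%. Over the same libraries the sum of 5 Purkinje cell markers was 7513 to 8673 CPM in WT, 6002 to 6709 CPM in Atxn1 154Q/2Q, and 6691 to 7136 CPM in Atxn1 154Q[V591A;S602D]/2Q, and its part in the levels of the members was not tested.

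Atxn3 in the hippocampus came nearest to the threshold among the members other than Atn1. The WT libraries, in the order of mice used above, had 42.0, 39.7, 38.9, and 40.4 CPM. Those of Atxn1 154Q/2Q had 44.6, 44.2, 43.8, and 40.9 CPM, the last being the doubted library 154Q-76, and those of Atxn1 154Q[V591A;S602D]/2Q had 42.3, 44.1, 43.8, and 45.5 CPM. All 4 Atxn1 154Q[V591A;S602D]/2Q values lay above all WT values, by a log2 fold change of 0.13 (SE 0.048, 95% interval 1.49% to 17.4% higher, adjusted p = 0.235). The Atxn1 154Q/2Q libraries overlapped WT (log2 fold change 0.11, SE 0.048, adjusted p = 0.221). Neither passed the threshold under any alternative tried, the fit without 154Q-76 included.

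Htt in the striatum shows how 1 library sets a value. The WT libraries had 158, 154, 96.1, and 162 CPM, the third being WT-220. The Atxn1 154Q/2Q libraries had 168, 176, 178, and 160 CPM, and the Atxn1 154Q[V591A;S602D]/2Q libraries 148, 157, 145, and 144 CPM. Between the mutants the values did not overlap, at a log2 fold change of -0.20 (SE 0.13, adjusted p = 0.945). Against WT the log2 fold change of Atxn1 154Q/2Q was 0.26 (SE 0.13, adjusted p = 0.252), and without WT-220 it was 0.11 (adjusted p = 0.296). Of the 105 differences, 2 were between groups that did not overlap, this one and that of Atxn3 above. Over all genes and the 15 comparisons together, groups did not overlap in 9.17% of cases. The share was 12% for the hippocampal comparison of Atxn3 and 4.98% for the striatal one of Htt, and nothing is read from 1 member in each.

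**Figure D4:**
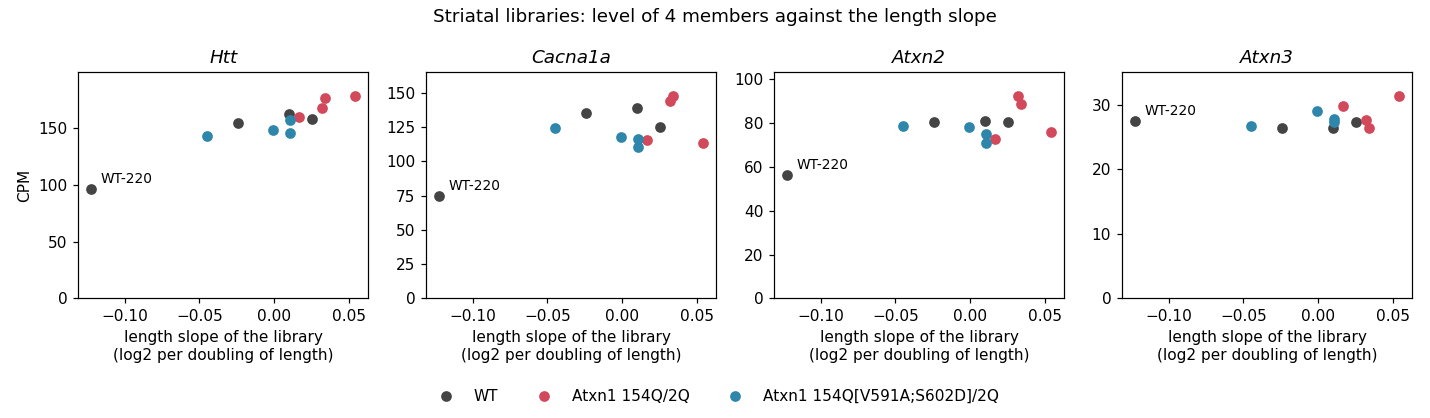
Level in CPM (vertical axes, from 0) of Htt, Cacna1a, Atxn2, and Atxn3 in the 12 striatal libraries against the length slope of each library, the change in log2 level relative to the mean striatal library per doubling of exon length over genes (horizontal axes). WT-220 lies at the far left at -0.12, low for Htt, Cacna1a, and Atxn2 and within the range of the rest for Atxn3.

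The striatal library WT-220 was low for Cacna1a and Atxn2 too. It had 74.8 CPM of Cacna1a against 125 to 139 CPM in the other WT libraries, and 56.2 CPM of Atxn2 against 80.3 to 80.9 CPM. For Atxn3 it had 27.4 CPM and for Tbp 29.1 CPM, no lower than the others. Its slope of log2 level, relative to the mean striatal library, on exon length over 14871 genes was -0.12 per doubling, and the other 11 striatal libraries lay between -0.045 and 0.054. The Atxn1 154Q/2Q libraries had slopes of 0.032, 0.034, 0.054, and 0.017, against 0.025, -0.024, -0.12, and 0.010 in WT. Fitting the slope as a covariate, an alternative chosen after the values were seen, brought the log2 fold change of Htt in Atxn1 154Q/2Q striatum to -0.0031 (adjusted p = 0.992). As slope and genotype go together in part, this fit cannot tell them apart. WT-220 also held the highest sum of striatal markers (4659 CPM) and the lowest of 4 cortical markers among WT striatal libraries (206 CPM against 462 to 543), and what these values contribute was not tested.

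The other values with an unadjusted p under 0.05 were small. Atxn7 in the brainstem had 33.2, 35.0, 32.1, and 33.6 CPM in WT and 36.8, 35.0, 36.5, and 35.6 CPM in Atxn1 154Q/2Q (log2 fold change 0.10, SE 0.045, adjusted p = 0.437). The remainder of Atn1 in the hippocampus had 10.0, 9.21, 9.93, and 8.87 CPM in WT and 8.16, 9.05, 8.57, and 7.56 CPM in Atxn1 154Q/2Q (log2 fold change -0.19, SE 0.085, adjusted p = 0.216). Both pairs of groups overlapped. Atxn7 in the cortex was spread widely within Atxn1 154Q/2Q, with 37.6, 42.3, 30.2, and 27.0 CPM against 29.1 to 32.3 CPM in WT (adjusted p at least 0.300 for every member in the cortex).

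A shift shared by regions was tested on 1 value per mouse, the mean log2 CPM over cerebellum, hippocampus, striatum, and cortex, with limma. No member passed, against 14.7% of all genes for Atxn1 154Q/2Q, 8.22% for Atxn1 154Q[V591A;S602D]/2Q, both against WT, and 0 between the mutants, where 1372 genes had an unadjusted p under 0.05. Htt was the only member with an unadjusted p under 0.05, in Atxn1 154Q/2Q. Its mean log2 CPM was 7.41, 7.27, 7.33, and 7.52 in WT, in the order of mice used above, and 7.54, 7.54, 7.54, and 7.40 in Atxn1 154Q/2Q, the last being 154Q-76. The groups overlapped, and the difference was 0.12 (SE 0.049, 95% interval 1.22% to 17.1% higher, adjusted p = 0.112). It passed without WT-221 (0.17, adjusted p = 0.0203) and without 154Q-76 (0.16, adjusted p = 0.0432), the mice of the doubted cortical and hippocampal libraries, and not without any of the other 10 mice. In Atxn1 154Q[V591A;S602D]/2Q the Htt difference from WT was 0.05 (SE 0.049, adjusted p = 0.592). Over the 7 members the differences of Atxn1 154Q/2Q from WT ran from -0.11 for Atn1 to 0.12 for Htt.

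The genotype effect on the members did not differ between regions by edgeR's interaction test. No member passed for Atxn1 154Q/2Q (5.71% of genes did) or for Atxn1 154Q[V591A;S602D]/2Q (1.33%), the adjusted p was at least 0.517 and 0.855, and none of the 14 had an unadjusted p under 0.05. DESeq2 called 0 of the 14 as well. With the mouse as a replicate block the counts were also 0.

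Relatives and partners of the members were then counted against WT in each region. Some marker sums also differed between genotypes. In the cortex the sum of 4 cortical markers was 505 to 610 CPM in WT, 361 to 434 CPM in Atxn1 154Q/2Q, and 361 to 433 CPM in Atxn1 154Q[V591A;S602D]/2Q. The sum of 4 neuronal markers there was 5107 to 5594, 3972 to 4750, and 4276 to 5112 CPM in the same order, and that of 4 astrocyte markers 957 to 1018, 758 to 921, and 794 to 936 CPM. In the striatum the 6 striatal markers summed to 1405 to 4659 CPM in WT, 571 to 997 CPM in Atxn1 154Q/2Q, and 503 to 2817 CPM in Atxn1 154Q[V591A;S602D]/2Q, and the astrocyte markers to 808 to 933, 704 to 762, and 680.1 to 783 CPM. Atxn1 154Q/2Q did not overlap WT in any of these sums, but other sums did overlap. In the cortex the oligodendrocyte sum overlapped (4837 to 5987 CPM in WT, 3819 to 5178 CPM in Atxn1 154Q/2Q), as did the microglial and endothelial sums. In the striatum the neuronal sum overlapped (3290 to 5705 against 4195 to 4320.5 CPM), and the oligodendrocyte sum did not (7851 to 13320 against 5730 to 6915 CPM). The part of marker sums in the changes of cortex and striatum below was not tested.

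Of 10 paralogs, 9 were tested in each region, and those called were all higher. They were 1 in Atxn1 154Q/2Q cerebellum (5.22% of all genes were called) and 2 in its cortex (11.1%). The cortical count stayed at 2 without WT-221 alone or without the pair whose labels and file names disagree. Without all 3 of these libraries it was 1, where 1261 genes were called. Without the hippocampal library 154Q-76, 1 paralog was higher in Atxn1 154Q/2Q hippocampus, where 1318 genes were called. Cacna1b, the pore of the N-type calcium channel, was higher in Atxn1 154Q/2Q cerebellum, at 78.6 ± 5.03 CPM against 63.9 ± 5.50 CPM in WT (log2 fold change 0.30, SE 0.061, adjusted p = 0.00889) and 71.004 ± 2.49 CPM in Atxn1 154Q[V591A;S602D]/2Q. It was also higher in Atxn1 154Q/2Q cortex (0.30), where Atxn7l1, a relative of ataxin-7, had 29.3 ± 0.660 CPM against 24.6 ± 1.81 CPM (0.26, SE 0.058, adjusted p = 0.00991). None of the paralogs passed in Atxn1 154Q[V591A;S602D]/2Q against WT, where 0.0138% to 7.15% of all genes did.

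As with all genes, few partners of ATXN7 and TBP in transcription were called. Of 18 SAGA genes, 17 were tested in striatum and cortex and all in the other regions, and 2 were called in Atxn1 154Q/2Q striatum and none in the other 9 comparisons with WT. Of all genes 5.68% were called in that striatal comparison, so the list was not below the background there. Usp22, the deubiquitinase of the SAGA module, rose from 210 ± 22.2 to 261 ± 11.2 CPM (log2 fold change 0.32, SE 0.077, adjusted p = 0.0330), and Taf12 fell from 16.1 ± 1.15 to 13.3 ± 0.496 CPM (-0.28, SE 0.074, adjusted p = 0.0427). Of the 12 TFIID subunits only Taf2 was called, higher in Atxn1 154Q/2Q striatum and cortex, with 43.9 ± 2.65 against 38.6 ± 1.86 CPM in the cortex (0.18, SE 0.054, adjusted p = 0.0414). Of all genes 11.1% were called in that cortical comparison. Without the striatal library WT-220, 1 SAGA gene was called higher and none lower in Atxn1 154Q/2Q striatum, so the fall of Taf12 was lost. No TFIID subunit was then called there, and without the cortical library WT-221 no TFIID subunit was called in the cortex. Without the hippocampal library 154Q-76, 2 SAGA genes were called in Atxn1 154Q/2Q hippocampus and 1 in Atxn1 154Q[V591A;S602D]/2Q hippocampus. The 9 ubiquitin partners of ATXN3 gave no call in any of the 10 comparisons with WT. With 0.0138% to 11.1% of all genes called in these comparisons, that is near the background.

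Of 11 listed partners of ATXN2, 2 were called once each, in hippocampus and cortex. Of all genes, 5.91% and 11.1% were called in these comparisons. Sh3gl1, an endophilin, was lower in Atxn1 154Q/2Q hippocampus (31.7 ± 2.36 against 41.7 ± 1.03 CPM, log2 fold change -0.39, SE 0.091, adjusted p = 0.0250). Tia1, a stress granule protein, was higher in Atxn1 154Q/2Q cortex (118 ± 29.2 against 87.8 ± 7.07 CPM, 0.43, SE 0.13, adjusted p = 0.0413). Without the cortical library WT-221 none of this list was called in the cortex, and without the striatal library WT-220 1 was lower in the striatum of each mutant.

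Among 14 genes tied to huntingtin, 1 rose and 2 fell in the cortex of each mutant, where 11.1% of all genes were called in Atxn1 154Q/2Q against 7.15% for Atxn1 154Q[V591A;S602D]/2Q. The rise was lost in both mutants without WT-221, without the pair whose labels and file names disagree, and without all 3. In Atxn1 154Q[V591A;S602D]/2Q 1 fell without the pair or without all 3. Bdnf, a neurotrophic factor whose transcription and transport huntingtin is known to favor, fell from 44.4 ± 3.46 to 27.4 ± 1.85 CPM in Atxn1 154Q/2Q cortex (log2 fold change -0.70, SE 0.066, adjusted p = 1.46e-05). In Atxn1 154Q[V591A;S602D]/2Q cortex it had 29.5 ± 1.52 CPM (-0.59, adjusted p = 7.63e-05). It was also called in Atxn1 154Q/2Q hippocampus (-0.53) and Atxn1 154Q[V591A;S602D]/2Q cerebellum (-0.33, adjusted p = 0.0499). Pacsin1, an endocytic adaptor, fell from 475 ± 17.6 to 402 ± 20.2 CPM in Atxn1 154Q/2Q cortex (-0.24, SE 0.048, adjusted p = 0.00426) and was 407 ± 15.1 CPM in Atxn1 154Q[V591A;S602D]/2Q (-0.22, adjusted p = 0.00991).

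Among 11 partners of atrophin-1 and of its relative RERE, 10 were tested in cerebellum, and in Atxn1 154Q/2Q 3 rose and 1 fell there. Of all genes 5.22% were called in that comparison. Baiap2, a membrane and actin scaffold, fell from 134 ± 6.39 to 101 ± 2.72 CPM (log2 fold change -0.41, SE 0.045, adjusted p = 8.96e-05) and was 111 ± 5.95 CPM in Atxn1 154Q[V591A;S602D]/2Q (-0.27, adjusted p = 0.00646). Magi1, another scaffold, rose from 92.7 ± 5.69 to 112 ± 5.97 CPM (0.27, SE 0.050, adjusted p = 0.00437). Baiap2 was also lower in Atxn1 154Q/2Q hippocampus, striatum, and cortex, and the striatal call was lost without WT-220.

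**Figure D5:**
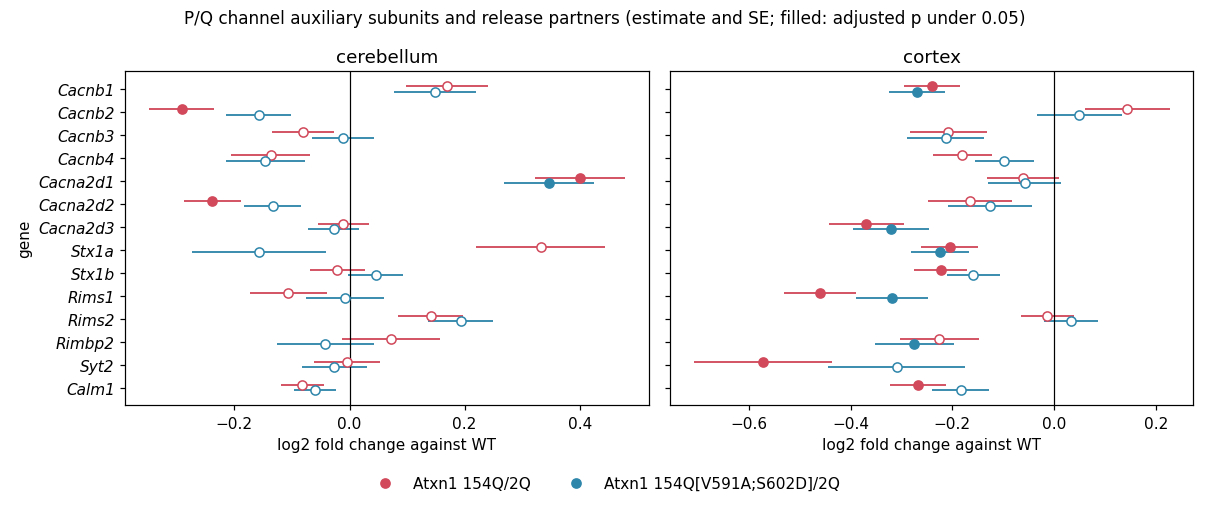
Log2 fold change against WT (horizontal axes) with its SE for 14 auxiliary subunits and release partners of the P/Q channel in cerebellum and cortex of both mutants, with filled points for an adjusted p under 0.05. In Atxn1 154Q/2Q cortex 7 filled points lie below 0 and none above.

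Partners of the P/Q channel fell in the cortex and, in smaller number, in the hippocampus and striatum. The list was chosen with earlier results of these data known, so its calls are a description and no independent test. Of 14 tested in the cortex, 7 fell and none rose in Atxn1 154Q/2Q, with a median log2 fold change of -0.22 against 0.0093 over all genes, while Cacna1a itself was at -0.012 (adjusted p = 0.947). In Atxn1 154Q[V591A;S602D]/2Q 5 fell, with a median of -0.20 against 0.0020. Of all genes, 11.1% and 7.15% were called in these 2 cortical comparisons. Rims1, a release site scaffold, fell from 293 ± 28.3 to 213 ± 11.1 CPM in Atxn1 154Q/2Q (log2 fold change -0.46, SE 0.071, adjusted p = 0.00077) and was 235 ± 19.9 CPM in Atxn1 154Q[V591A;S602D]/2Q (-0.32, adjusted p = 0.0128). Cacnb1, a channel beta subunit, fell from 193 ± 9.75 to 141 ± 8.45 CPM in Atxn1 154Q/2Q striatum (-0.45, SE 0.069, adjusted p = 0.00315), to 148 ± 10.7 CPM in Atxn1 154Q[V591A;S602D]/2Q (-0.38, adjusted p = 0.0172), and also in the cortex of both. Without WT-221 and the doubted pair of cortical libraries the counts in the cortex were 5 and 0 with medians of -0.22 and -0.18. Over all genes, 1261 and 465 were then called. Without WT-221 alone the P/Q counts were 6 and 3 (1418 and 868 over all genes), and without the pair alone 7 and 1 (1843 and 800). In the striatum 1 fell in each mutant, with medians of -0.19 and -0.22, where 5.68% and 1.35% of all genes were called. Without WT-220 4 and 3 fell, with medians of -0.28 and -0.30, where 1078 and 610 genes were called. The marker sums given above are from the same libraries. In the cerebellum 1 P/Q partner rose and 2 fell in Atxn1 154Q/2Q, where 5.22% of all genes were called. In the hippocampus 2 fell and none rose in Atxn1 154Q/2Q, with a median of -0.10, where 5.91% of all genes were called. None was called in Atxn1 154Q[V591A;S602D]/2Q hippocampus, with a median of -0.14, where 1.3% of all genes were called. Without the hippocampal library 154Q-76, 2 fell in each mutant, with medians of -0.12 and -0.14, where 1318 and 786 genes were called.

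The genes whose profile over the 59 libraries was most like a member's were listed by Pearson correlation of log2 CPM, as a description in which region sets most of the pattern. For Cacna1a they included Stat2 (r = 0.970) and Kdm3b (0.968), for Tbp they were Btg1 (0.968), Casp2 (0.967), and Prpf38b (0.965), and for Atxn7 Zfp445 (0.973), Hnrnpu (0.970), and Ric1 (0.969). Atxn3 was nearest to Atp8a1 (0.951), Tbck (0.943), and Sema5a (0.939), and Htt to Herc1 (0.940), Sptan1 (0.933), and Ep400 (0.903). Atxn2 was nearest to Scn8a (0.901), Dzip1 (0.884), and Larp1 (0.883), and the remainder of Atn1 to Atp6v0c (0.887), Samd1 (0.874), and Trim8 (0.870). Among the members themselves Cacna1a and Tbp were closest (0.924), and Atxn3 and Atn1 were the most opposed (-0.64).

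As CIC binds specific octamers, the RefSeq promoter windows of Atxn2, Atxn3, Atxn7, Tbp, and Htt (GRCm38.p6, 250 bases before to 50 after a start) were searched on both strands for TGAATGAA and TGAATGGA. A window of Atxn2 held a match, 1 of 2, and the windows of Atxn3, Atxn7, Tbp, and Htt held none. Cacna1a and Atn1 were not searched. Over 32851 windows 2.469% had a match.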

How the data were processed

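Per the submitters' processing notes, reads were trimmed with Trimmomatic 0.36 and aligned with STAR 2.7.2d to GRCm38.p6 (mm10). The methods give GENCODE M18 as the annotation. The deposited values are whole-number counts of read pairs per gene, made by the authors without normalization, and unstranded counts were used here, since 48.9% to 50.1% of stranded counts fell on the first strand. Summary lines (18.8% to 24.7% of read pairs per library) and 1 transgene line (at most 53 counts) were left out. Gene symbols, positions, and coding sequence came from GENCODE M21 (GRCm38).

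Counts were filtered with filterByExpr, scaled by TMM, and tested with edgeR 4.0.16 quasi-likelihood fits in R 4.3.3, with Benjamini-Hochberg adjustment over all genes tested and a threshold of 0.05. The fits were 3 genotypes per region, 5 regions in WT, and genotype by region. Means per mouse (log2 CPM, prior count 2) were tested with limma 3.58.1. SEs were derived from each fold change and its F statistic, and intervals use the t distribution with each gene's total degrees of freedom, residual plus prior. Alternatives included DESeq2 1.42.0. The fits across genes were tested on simulated data. Depth was 28.1 to 112 M (M, 1000000) counted pairs per library, which bounds counting error only. Nothing in the labels separates litters or batches of mice, so p-values measure the spread between these mice. The mouse numbers form a lower and a higher series, and what these stand for is not given. Numbers run from 69 to 76 in Atxn1 154Q/2Q and from 207 to 218 in Atxn1 154Q[V591A;S602D]/2Q. The WT mice are 70, 77, 220, and 221. The direct comparison of the mutants therefore sets 1 series against the other, and the comparisons with WT are partly unbalanced.

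Regions of 1 mouse share its number, so libraries are paired by animal between regions. The deviations of same-mouse libraries from their group means had a median correlation of -0.088 to 0.085 over pairs of regions. Genotypes share no mice and cannot be paired. The members and lists were chosen with earlier results of these data known. Named genes were the 7 members, up to 2 called genes per list with the lowest adjusted p against WT, and the 3 most correlated genes per member, of which 1 is not reported here; others were named after their values were seen.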

Additional observations from a re-analysis of the deposited data

Results flagged for a closer look

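In each of the 98 groups of 4 libraries, the gap between the highest or lowest value and its nearest neighbour was set against the range of the group (Dixon's test at the 95% level). It was passed in 6 groups, and chance alone passes about 1 in 20 groups. In the striatum WT-220 was low for Htt, at 96.077 CPM against 154 to 162 CPM, and for Atxn2, at 56.246 CPM against 80.3 to 80.9 CPM. Atxn7 was high in the striatal library 154Q-AXH-217, at 38.18 CPM against 25.8 to 27.8 CPM, and Htt was high in the cortical library of the same mouse, at 193.06 CPM against 169 to 170 CPM. Cacna1a was high in the hippocampal library 154Q-AXH-218, at 164.34 CPM against 139 to 144 CPM, and Atxn3 was low in the cerebellar library 154Q-75, at 29.172 CPM against 31.3 to 31.7 CPM.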

How the results depend on the processing

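No difference between genotypes in a region passed the threshold under any alternative: in 1911 recomputed values (DESeq2, DESeq2 size factors, no filter, 2 genotypes only, number series of the mice, each library left out, the cortical pair exchanged or left out, and the length slope) the lowest adjusted p was 0.0582. Of these values 180 changed sign, 41 of them by 1 SE or more, 21 of those with the number series and 10 with the length slope as covariate. With each mouse left out in turn, 0 to 1 members passed for the mean over regions in Atxn1 154Q/2Q against WT, the 1 being Htt, and none of the other 20 mean differences passed under any alternative. Between regions of WT mice, 38 differences passed and 26 of them did so in all 10 alternatives: 4 of 4 for Atxn2, 6 of 8 for Atxn3, 6 of 7 for Atxn7, 4 of 6 for Cacna1a, 4 of 6 for Tbp, 2 of 5 for Atn1, and 0 of 2 for Htt. With a WT mouse left out, the members called ranged from 2 to 4 for brainstem against hippocampus (lowest without WT-70 or WT-221), from 3 to 5 for hippocampus against striatum (highest without WT-77), from 3 to 6 for cerebellum against striatum (lowest without WT-220), and from 3 to 5 for cerebellum against cortex (lowest without WT-221). With the replicate block, pairing the regions of a mouse, all 7 members passed the F test and no call changed. No interaction passed in 182 recomputed values, with a lowest adjusted p of 0.273. The striatal libraries were the shallowest, and intervals there reached 45.6%.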
